A study of Mus musculus with 8 samples.

Results

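Notch1, Notch2, Notch3 and Notch4, the 4 Notch receptor genes of the mouse, and Dll1, Dll3, Dll4, Jag1 and Jag2, its 5 canonical ligand genes, were followed in neural stem/precursor cells given the transcription factor gene Nfia. The genes were taken by symbol as a family, and all 9 were found among the 23997 gene symbols of the RNA-seq files. In the Nfia-transduced cells Notch1, Dll4 and Jag1 were higher and Dll3 was lower, while Notch2, Notch3, Dll1 and Jag2 did not pass the test.

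Notch receptors are single-pass proteins that are cut when a ligand on a neighbouring cell binds them. The freed intracellular part enters the nucleus, joins the DNA-binding protein RBPJ and a Mastermind coactivator, and switches on repressor genes of the Hes and Hey families. In the embryonic forebrain this keeps radial glia and other precursors dividing, while new neurons and committed progenitors present Delta-like ligands to their neighbours, a process known as lateral inhibition. Notch signalling is also known to help precursors become able to form astrocytes.

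The Nfia group was 3 libraries from Nfia-transduced cells, and the reference was 3 libraries from cells labelled control. The labels give neither the vector that carried Nfia nor what the control cells received. All cells were primary telencephalic precursors of ICR mouse embryos taken at E11.5 (the stage label says E11), grown on coated plates with basic fibroblast growth factor at 10 ng/mL, with RNA collected 3 days past transduction. A Flag ChIP and an IgG ChIP sample, 1 each, are not analysed here. Whether the libraries of 1 group are separate cultures is not said, so the p-values may reflect technical spread alone.

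Expression is given as FPKM, the fragments of a transcript scaled to its length and to the depth of the library. The libraries summed to 474010 to 511700 FPKM, and their depth relative to control 1, read from the steps between low values, lay between 0.761 and 1.11; the absolute depth is unknown. Nfia itself stood at 69.0, 85.6 and 103.5 FPKM in Nfia libraries, against 19.8, 23.9 and 22.2 FPKM in control libraries. The precursor marker Sox2 lay at 230 to 247 FPKM in Nfia libraries and 222 to 238 FPKM in control libraries, so the labelled cell type had its defining marker in every library. Neurons were present too, with the neuronal tubulin gene Tubb3 at 291 to 320 FPKM in Nfia libraries and 574 to 651 FPKM in control libraries. Of 10 precursor markers 3 were higher and 5 lower (3 lower without Nfia 2 or without control 2), and their sum was 5532 to 6618 FPKM in Nfia libraries and 5622 to 6111 FPKM in control libraries. A log2 difference below is the Nfia mean minus the control mean of log2(FPKM + 1), a scale on which changes of low genes come out too small. Differences were tested with limma over the 12537 genes that averaged at least 1 FPKM, with Benjamini-Hochberg adjustment over all of them.

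Of the 9 members, 8 reached that mean. Of these 8, 3 were called higher, 1 was called lower and 4 were not called, at an adjusted p under 0.05. Over all genes tested the same rule called 31.3% in either direction, 16.1% as higher and 15.1% as lower, so a call alone says little about the family, and the sizes of the changes are given for each member. The Nfia and control libraries did not overlap for 4 of the 8 members tested, beside 47.7% of all genes tested. On that scale 114 genes, or 0.909% of those tested, were called and at least 2-fold higher, and Dll4 and Notch1 were among them. Notch1 was only just over this bound, a log2 difference of 1. It came to 0.98 with upper-quartile scaling, 0.99 with quantile normalization, 0.92 without Nfia 3 and 0.93 without control 1. In the other fits it stayed above 1. The median log2 difference was 0.09 for the 8 members and 0.01 for all genes tested. Dll4 passed the filter only through the Nfia libraries, since every control library was under 1 FPKM, so its test depended on its being high in that group. With no filter on low values all 9 members were tested among 19184 genes, of which 19.3% were called. The members called were then again Notch1 (adjusted p = 0.00224 in limma), Dll4 (0.00116), Jag1 (0.012) and Dll3 (0.0297).

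**Figure D1:**
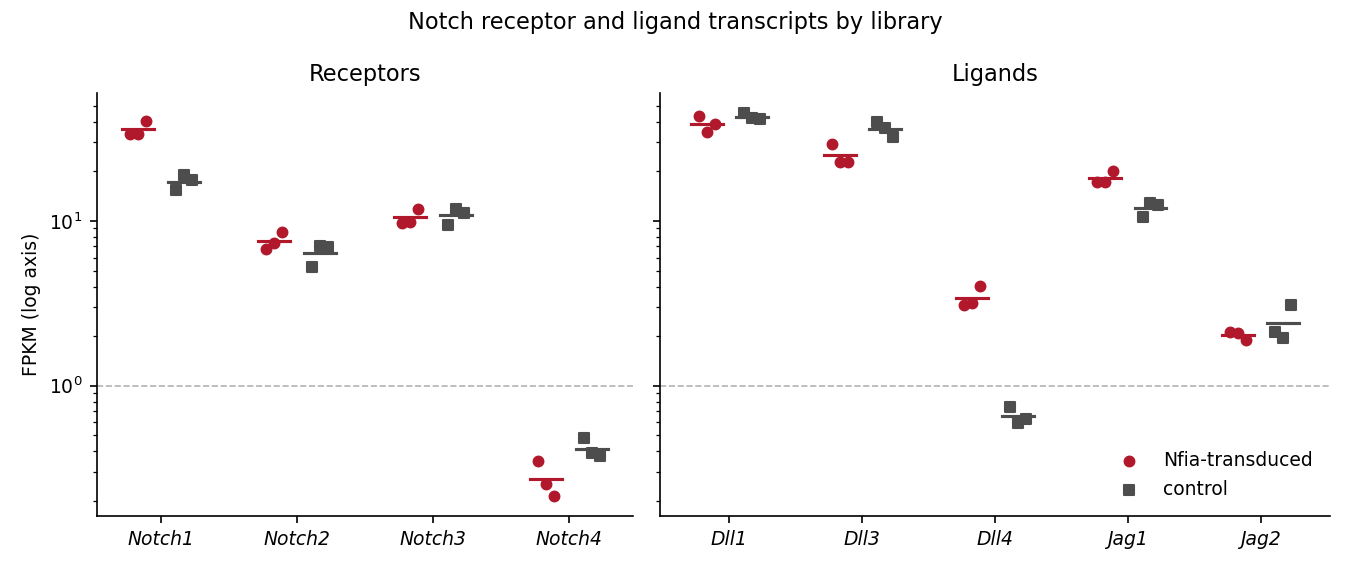
FPKM of each Notch receptor (left) and ligand (right) in every library on a log axis, with Nfia-transduced libraries as red circles, control libraries as grey squares, horizontal bars for group means and a dashed line at 1 FPKM. The Nfia points of Notch1, Dll4 and Jag1 lie above all control points, those of Dll3 and of the scarce Notch4 lie below them, and the other members overlap.

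The promoters of the 4 called members are shown because these members moved, 3 of them in one direction. They are RefSeq windows of GRCm38.p6, the assembly that the mm10 of the processing notes also denotes, from 250 bases before to 50 bases after the annotated start, written along the strand of the gene. All 9 members had a window in the table. Capitals mark TTGGC or its complement GCCAA, the core of the NFI recognition site, CAGCTG, an E-box bound by proneural factors, and GTGGGAA or its complement, the RBPJ site. The windows are chr2:26503773-26504072 on the minus strand for Notch1, chr2:119325534-119325833 on the plus strand for Dll4, chr2:137116471-137116770 on the minus strand for Jag1 and chr7:28301736-28302035 on the minus strand for Dll3.
Notch1: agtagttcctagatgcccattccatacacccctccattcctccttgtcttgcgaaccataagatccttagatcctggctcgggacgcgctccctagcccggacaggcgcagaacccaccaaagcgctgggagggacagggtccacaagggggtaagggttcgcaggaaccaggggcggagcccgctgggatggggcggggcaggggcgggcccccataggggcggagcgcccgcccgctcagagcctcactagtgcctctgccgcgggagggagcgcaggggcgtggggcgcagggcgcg
Dll4: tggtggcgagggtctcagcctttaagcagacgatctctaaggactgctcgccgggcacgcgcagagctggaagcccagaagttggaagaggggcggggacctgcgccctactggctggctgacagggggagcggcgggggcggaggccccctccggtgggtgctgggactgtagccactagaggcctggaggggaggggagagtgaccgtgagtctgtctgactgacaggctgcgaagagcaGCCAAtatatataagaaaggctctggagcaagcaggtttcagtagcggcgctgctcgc
Jag1: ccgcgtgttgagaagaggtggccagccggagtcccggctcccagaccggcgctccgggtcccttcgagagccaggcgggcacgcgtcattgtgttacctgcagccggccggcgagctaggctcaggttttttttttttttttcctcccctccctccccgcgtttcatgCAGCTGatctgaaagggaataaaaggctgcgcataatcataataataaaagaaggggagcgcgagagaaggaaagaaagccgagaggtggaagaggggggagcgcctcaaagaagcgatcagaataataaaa
Dll3: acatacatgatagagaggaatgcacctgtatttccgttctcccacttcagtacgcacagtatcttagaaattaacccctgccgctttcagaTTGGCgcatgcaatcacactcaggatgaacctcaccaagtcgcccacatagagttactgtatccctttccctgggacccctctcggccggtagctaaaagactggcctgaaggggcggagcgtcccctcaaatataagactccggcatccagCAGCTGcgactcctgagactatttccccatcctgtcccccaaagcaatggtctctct
Dll4 held 1 NFI core, GCCAA at position -8 from the start, and Dll3 held 1, TTGGC at position -159, while the Notch1 and Jag1 windows held none. Over all 32851 windows of that length, 46.7% held the core on either strand. The uncalled members Notch2, Notch3, Notch4 and Dll1 held it too, so within the family it did not go with the direction of change. CAGCTG stood at position -82 in Jag1, at -7 in Dll3 and at -132 in the upstream one of the Dll1 windows, beside 16.3% of all windows. The RBPJ letters were in no member's window and in 6.38% of all windows, and the full NFI palindrome, TTGGC and GCCAA with 5 bases between them, was in no member's window and in 0.0365% of all. The Notch1 window held none of the marked letters, which says only that they are not in these 300 bases.

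Among the receptors, Notch1 was the one that rose. Notch1, which radial glia and other forebrain precursors carry, was at 33.5, 33.7 and 40.6 FPKM in Nfia libraries, against 15.5, 18.9 and 17.7 FPKM in control libraries. Every Nfia library lay above every control library, and the lowest of them was well clear of the highest control. The means were 35.9 ± 4.04 FPKM with Nfia and 17.3 ± 1.73 FPKM in control cells (SD, n = 3 each), a 2.07-fold difference (log2 difference 1.01, SE 0.10, adjusted p = 0.000838 in limma). In order of log2 difference Notch1 stood at place 226 from the top of the 12537 genes tested. Its GRCm38.p6 position is chromosome 2, 26457902 to 26503822.

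Notch2, a second receptor of neural precursors, was at 6.74, 7.38 and 8.59 FPKM in Nfia libraries, against 5.25, 7.04 and 6.95 FPKM in control libraries. The groups overlapped, and the log2 difference of 0.21 (SE 0.12) did not pass the test (adjusted p = 0.232 in limma). Notch3, best known from smooth muscle cells and pericytes but also made by neural precursors, was at 9.78, 9.90 and 11.9 FPKM in Nfia libraries, against 9.42, 11.8 and 11.2 FPKM in control libraries. Its log2 difference was -0.04 (SE 0.10, adjusted p = 0.808 in limma), and it took the other sign, up to 0.023, when Nfia 1, Nfia 2 or control 2 was left out.

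Notch4, a receptor of endothelial cells, was low. It was listed at 0.350, 0.254 and 0.213 FPKM in Nfia libraries, against 0.480, 0.389 and 0.374 FPKM in control libraries, under the filter in all of them. The Nfia values lay below the control values, but with no filter on low values the log2 difference of -0.15 did not pass the test (unadjusted p = 0.0302, adjusted p = 0.109 in limma).

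The 3 receptors above the filter shared a pattern within each group that the choice of genes did not use. Nfia 3 was the highest Nfia library for Notch1, Notch2 and Notch3, and control 1 was the lowest control library for each of them. Nfia 3 was also the shallowest library and the one with the most Nfia transcript, and the part of either in the values was not tested. Dll4 and Jag1 were likewise highest in Nfia 3. Markers of smooth muscle cells and pericytes, the other likely source of Notch3, summed over 10 genes to 18.9 to 33.3 FPKM in Nfia libraries and 26.2 to 33.6 FPKM in control libraries. Of these genes 5 were tested, 0 were higher and 1, Rgs5, was lower, a call that ended without Nfia 2 or without Nfia 3; with no filter on low values 2 were lower. Their sums were lowest in Nfia 1 and control 1, and 8 markers of meninges and mesenchyme, of which 6 were tested and none was called, likewise summed to 9.10 FPKM in Nfia 1 and 8.89 FPKM in control 1, against 18.3 to 23.4 FPKM in the other libraries. Notch3, like Notch1 and Notch2, was lowest of its group in Nfia 1 and in control 1. The part of such cells in the level of Notch3 was not tested.

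**Figure D2:**
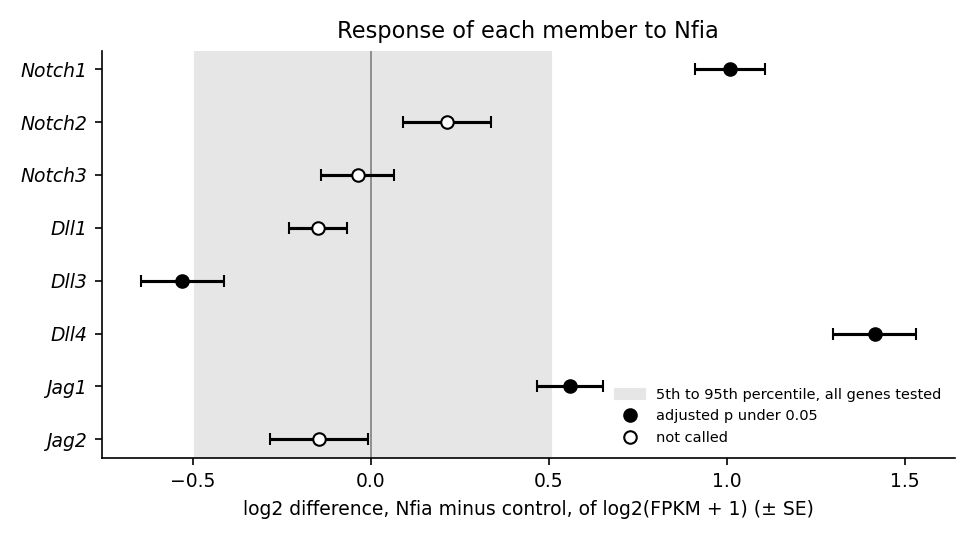
Log2 difference (Nfia minus control, on log2(FPKM + 1)) of the 8 members tested, with limma's standard error as bars; filled points passed an adjusted p of 0.05, open points did not, and the grey band holds the 5th to 95th percentile of all 12537 genes tested (-0.49 to 0.51). Dll4 (1.42), Notch1 (1.01) and Jag1 (0.56) lie above the band and Dll3 (-0.53) just below it.

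Among the Delta-like ligands, Dll4 rose, Dll3 fell and Dll1 was not called. Dll4 is known chiefly as the arterial and tip-cell ligand of blood vessels and is also made by some neural progenitors. It was at 3.07, 3.18 and 4.02 FPKM in Nfia libraries, against 0.740, 0.593 and 0.624 FPKM in control libraries. The groups were far apart for the size of their spread. Means were 3.42 ± 0.517 FPKM with Nfia and 0.652 ± 0.0777 FPKM in control cells (SD, n = 3 each), a 5.25-fold difference (log2 difference 1.42, SE 0.12, adjusted p = 0.000506 in limma). With a pseudocount of 0.1 in place of 1 the log2 difference was 2.22. It stood at place 138 from the top of all genes tested, the highest place of any member. Dll4 spans 119325784 to 119335666 of chromosome 2 and shares 414 bases with the lncRNA gene Gm14207. Gm14207 averaged 0.349 FPKM with Nfia and 0.115 FPKM in control cells. The files do not say whether reads were assigned by strand, so reads of the 2 genes cannot be told apart in the shared stretch.

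Endothelial cells would be the textbook source of Dll4 and Notch4. The defining endothelial markers were near 0, with Cdh5 at 0 to 0.0353 FPKM in Nfia libraries and 0.00978 to 0.107 FPKM in control libraries, and Pecam1 at 0.0667 to 0.362 FPKM in Nfia libraries and 0.194 to 0.279 FPKM in control libraries. Of 10 endothelial markers 7 were under 1 FPKM in every library and 2 were tested, of which Cldn5 was lower with Nfia and Egfl7 was not called (3.18 to 4.97 FPKM in Nfia libraries and 2.86 to 3.19 FPKM in control libraries). Without Nfia 3, Egfl7 was called higher. The list summed to 5.80 to 8.73 FPKM in Nfia libraries and 7.44 to 8.63 FPKM in control libraries. These sums overlapped between the groups, but Egfl7 was their largest part in every library. Each of the other markers had a lower mean with Nfia. Cldn5 was at 0.870 to 1.18 FPKM in Nfia libraries and 1.71 to 2.35 FPKM in control libraries. The part of endothelial cells in the level of Dll4 was not tested.

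Dll1 is the main Delta-like ligand of forebrain neurogenesis, and it had the highest mean FPKM of the family in both groups, though Notch1 exceeded it in Nfia 3. It was at 43.1, 34.7 and 38.6 FPKM in Nfia libraries, against 45.4, 42.2 and 41.3 FPKM in control libraries. Nfia 1 lay within the control range and the other Nfia libraries below it, and the log2 difference of -0.15 (SE 0.08) did not pass the test (adjusted p = 0.209 in limma). Dll3 differs from the other Delta-like proteins in that it acts inside the cell that makes it and is not known to activate Notch on neighbours. It was at 29.5, 22.7 and 22.8 FPKM in Nfia libraries, against 39.8, 36.8 and 32.4 FPKM in control libraries. All Nfia libraries lay below all control libraries, though Nfia 1 came close to control 3. Means were 25.0 ± 3.88 FPKM with Nfia and 36.3 ± 3.72 FPKM in control cells (SD, n = 3 each), a ratio of 0.687 (log2 difference -0.53, SE 0.12, adjusted p = 0.0158 in limma). The call of Dll3 is the least firm of the 4, since it ended without Nfia 2 (adjusted p = 0.0638), Nfia 3 (0.0586), control 1 (0.059) or control 2 (0.0556). Dll1 lies on chromosome 17 from 15367354 to 15376932 and Dll3 on chromosome 7 from 28293555 to 28301785.

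Delta-like ligands are made by cells on their way to becoming neurons, and neuron markers were lower in the same libraries. Of 10 neuron markers tested 9 were lower and 0 higher, and their sum was 1074 to 1095 FPKM in Nfia libraries and 1702 to 1783 FPKM in control libraries. The part of this in the levels of Dll3 and Dll1 was not tested. In bulk RNA, fewer cells of a type and less RNA per cell cannot be told apart.

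Of the Jagged ligands, Jag1 rose and Jag2 was not called. Jag1, a ligand that neural progenitors can also make, was at 17.2, 17.1 and 20.0 FPKM in Nfia libraries, against 10.5, 12.9 and 12.5 FPKM in control libraries. The groups did not overlap. Means were 18.1 ± 1.65 FPKM with Nfia and 12.0 ± 1.30 FPKM in control cells (SD, n = 3 each), a 1.51-fold difference (log2 difference 0.56, SE 0.09, adjusted p = 0.00577 in limma). Its paralog Jag2 was at 2.12, 2.09 and 1.91 FPKM in Nfia libraries, against 2.13, 1.95 and 3.09 FPKM in control libraries. Control 3 stood above the other 5 libraries, and the log2 difference of -0.15 (SE 0.14, adjusted p = 0.457 in limma) was close to 0 without it. Jag1 lies on chromosome 2 from 137081451 to 137116520 and Jag2 on chromosome 12 from 112907803 to 112929812. The members that rose are thus all on chromosome 2, many megabases apart, and no test of position was made.

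The changes altered the order of the family. In Nfia-transduced cells the order of mean FPKM was Dll1, Notch1, Dll3, Jag1, Notch3, Notch2, Dll4, Jag2 and Notch4, and among neighbours the library values overlapped only between Dll1 and Notch1. In control cells it was Dll1, Dll3, Notch1, Jag1, Notch3, Notch2, Jag2, Dll4 and Notch4, and they overlapped only between Jag1 and Notch3. Notch1 exceeded the level of 76.0% of genes tested in Nfia-transduced cells and of 55.5% in control cells. Dll3 exceeded 66.5% of genes in Nfia-transduced cells and 76.8% in control cells.

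Summed over the 4 receptors, transcript levels were 50.4, 51.2 and 61.3 FPKM in Nfia libraries, against 30.6, 38.1 and 36.2 FPKM in control libraries. Summed over the 5 ligands they were 94.9, 79.8 and 87.3 FPKM in Nfia libraries, against 98.6, 94.5 and 90.0 FPKM in control libraries. The ligand sum was therefore 1.62 ± 0.237 times the receptor sum with Nfia and 2.73 ± 0.426 times in control cells (SD, n = 3 each), and the groups did not overlap. These sums are descriptions and were not tested.

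Within the receptor pool Notch1 made up 66.2% ± 0.374 with Nfia and 49.6% ± 0.872 in control cells. Notch3 made up 19.4% ± 0.0514 with Nfia and 30.9% ± 0.134 in control cells, and Notch2 13.9% ± 0.524 with Nfia and 18.3% ± 1.03 in control cells. The spread of these shares between libraries was much smaller than that of the levels themselves. Within the ligand pool Dll1 kept a like share, 44.4% ± 0.938 with Nfia and 45.5% ± 0.782 in control cells, with overlapping libraries. Dll3 made up 28.5% ± 2.46 with Nfia and 38.5% ± 2.23 in control cells. Jag1 made up 20.8% ± 2.47 with Nfia and 12.8% ± 1.82 in control cells, and Dll4 3.94% ± 0.683 with Nfia and 0.690% ± 0.0618 in control cells (SD, n = 3 each throughout). For Dll3, Jag1 and Dll4 the shares of the groups did not overlap.

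**Figure D3:**
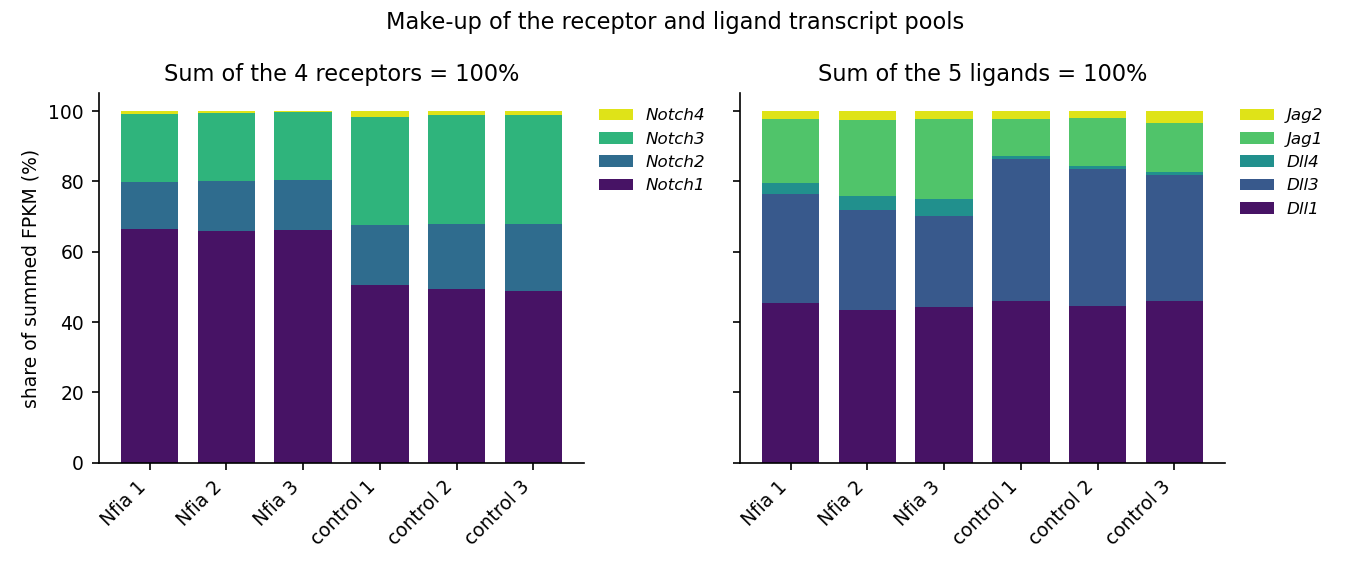
Share of each gene in the summed FPKM of the 4 receptors (left) and of the 5 ligands (right), in percent, with 1 stacked bar per library, Nfia libraries left of control libraries. Notch1 fills 65.8% to 66.5% of the receptor pool in Nfia libraries and 48.8% to 50.5% in control libraries, and Jag1 and Dll4 are wider and Dll3 narrower in the ligand bars with Nfia.

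Ratios between members were compared within libraries, since such a ratio hardly moves with the scaling of a library. The FPKM of Notch1 was 3.43, 3.41 and 3.42 times that of Notch3 in Nfia libraries, against 1.64, 1.60 and 1.57 times in control libraries. It was 4.98, 4.57 and 4.73 times that of Notch2 in Nfia libraries, against 2.95, 2.68 and 2.55 times in control libraries. The log2 difference between groups was 1.05 for the ratio of Notch1 to Notch3 and 0.80 for that of Notch1 to Notch2, on log2(FPKM + 1). Dll1 was 1.46, 1.53 and 1.69 times Dll3 in Nfia libraries, against 1.14, 1.15 and 1.28 times in control libraries. Dll1 was 2.50, 2.03 and 1.93 times Jag1 in Nfia libraries, against 4.32, 3.26 and 3.30 times in control libraries. Jag1 was 2.55, 2.32 and 2.33 times Notch2 in Nfia libraries, against 2.00, 1.84 and 1.80 times in control libraries. In each of these 5 pairs the groups did not overlap. The two-sided exact permutation p was 0.1 for each, the smallest that 3 against 3 libraries can give, and 0.1 after adjustment over the 5 pairs, so none could pass 0.05.

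**Figure D4:**
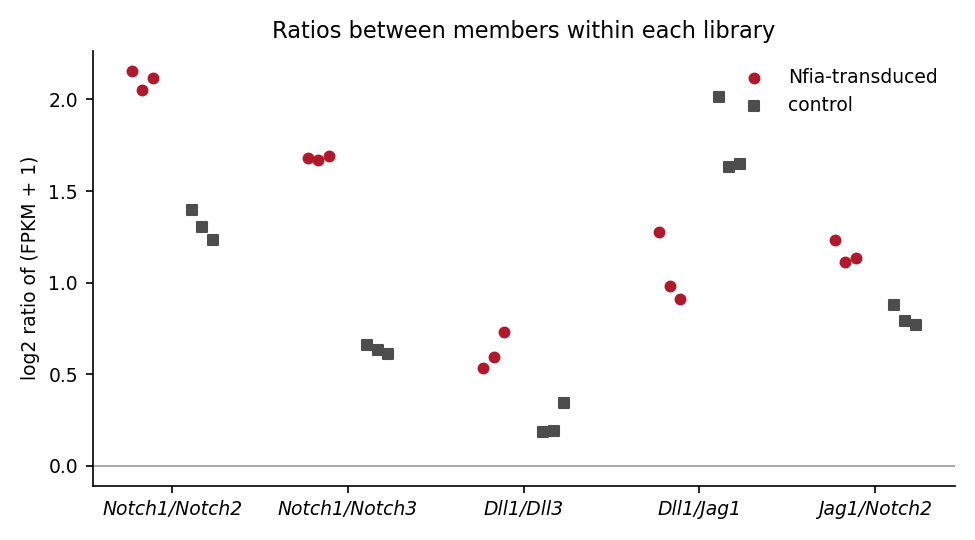
Log2 ratio of (FPKM + 1) between pairs of members within each library, with Nfia-transduced libraries as red circles left of control libraries as grey squares. The mean ratio is higher with Nfia for Notch1/Notch2 (2.11 against 1.31), Notch1/Notch3 (1.68 against 0.63), Dll1/Dll3 (0.62 against 0.24) and Jag1/Notch2 (1.16 against 0.81), and lower for Dll1/Jag1 (1.06 against 1.76).

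For each called member the tested genes with the most similar profile over the 6 libraries were found, by the root mean square distance between log2(FPKM + 1) values centred on their mean. The nearest to Notch1 were Ncan, a brain proteoglycan gene (distance 0.0571), Lifr, a receptor subunit for cytokines that promote astrocyte formation (0.0646), and Mtss1l (0.0671), beside a median distance of 0.525 for all genes tested. The nearest to Dll4 were Als2cl (0.0423), the RNA-binding protein gene Zfp36l2 (0.106) and Prr18 (0.106), beside a median of 0.720. Near to Jag1 were Abtb2 (0.0176) and the kinesin gene Kif1c (0.0372), beside a median of 0.315. The nearest to Dll3 were the RNA-binding protein gene Hnrnph3 (0.0487), Sp8, a zinc-finger factor of forebrain patterning (0.0565), and Stac2 (0.0568), beside a median of 0.321. These distances are descriptions over 6 libraries that share the same group difference.

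The other genes of the pathway moved in both directions. Of 63 genes listed in 6 groups by role, 57 were tested, 10 were higher, 15 lower and 32 not called. The share called was 43.9%, beside 31.3% of all genes tested, and the median log2 difference was -0.04, beside 0.01 for all. The count of higher genes fell to 6 without Nfia 2, to 5 without control 1 and to 6 without control 3.

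Of the 3 Fringe genes, which code for glycosyltransferases that set how well Notch receptors respond to Delta-like or Jagged ligands, 1 was higher and 1 lower. Lfng was at 54.5 to 55.2 FPKM in Nfia libraries, against 26.2 to 27.3 FPKM in control libraries (log2 difference 1.01, adjusted p = 9.12e-05 in limma). Mfng was at 11.4 to 18.0 FPKM in Nfia libraries, against 26.6 to 35.6 FPKM in control libraries (log2 difference -1.15, adjusted p = 0.00471). Neither call ended when any 1 library was left out.

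Of 24 genes for receptor maturation, receptor cleavage and ligand endocytosis, 4 were higher, 4 lower and 16 not called, with a median log2 difference of -0.02. The higher calls were few once any 1 library was left out, with 2 without Nfia 1, 0 without Nfia 2, Nfia 3 or control 1, and 1 without control 2 or control 3. They numbered 1 with upper-quartile scaling and 2 with no filter on low values. The lower calls numbered 2 without Nfia 1, Nfia 2, control 1 or control 2. Most genes of the cleavage machinery were not called. The gamma-secretase genes Psen2, Ncstn, Psenen, Aph1a, Aph1b and Aph1c and the protease gene Adam10 were not called, while the sheddase gene Adam17 was higher by a log2 difference of 0.22 (adjusted p = 0.0206). Mib1, the ubiquitin ligase that lets ligands be drawn into the sending cell, was lower by a log2 difference of -0.23 (adjusted p = 0.0195 in limma), and Neurl1b, another ligase for ligands, was higher (0.42, adjusted p = 0.0444). Numbl, an inhibitor of Notch, was lower by a log2 difference of -0.45 (adjusted p = 0.00113). The related inhibitor gene Numb had a log2 difference of 0.24 (adjusted p = 0.0452), and its call ended without any 1 library (adjusted p = 0.0531 to 0.133), with no filter, with upper-quartile or median-of-ratios scaling and with no variance trend (0.0534 to 0.0827). The Deltex genes Dtx1 (-0.26) and Dtx3 (-0.41) were lower and Dtx4 (0.24) was higher. Among these calls, those of Numbl and Dtx3 held when any 1 library was left out, and each of the others ended without at least 1 library.

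Of 15 genes of the nuclear complex and its corepressors, 3 were higher and 2 lower. The Mastermind coactivator genes went apart, with Maml2 higher at 18.2 ± 0.696 FPKM with Nfia and 12.7 ± 1.25 FPKM in control cells (log2 difference 0.49, adjusted p = 0.00393 in limma). Maml3 was lower at 3.86 ± 0.614 FPKM with Nfia and 5.89 ± 0.346 FPKM in control cells (log2 difference -0.51, adjusted p = 0.0111; SD, n = 3 each). Kat2a, an acetyltransferase gene, was higher (0.24, adjusted p = 0.0182) except where control 1 or control 3 was left out, and Rbpj, the DNA-binding core of the complex, was lower (-0.21, adjusted p = 0.0271). The call of Rbpj ended without any 1 library other than Nfia 1 (adjusted p = 0.0676 to 0.0955).

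The target genes moved in both directions. Of 6 listed, Hey2 and Heyl were under the filter, 1 of the other 4 was higher and 3 were lower, with a median log2 difference of -0.41. Hes1, a repressor of proneural genes, was at 29.7 to 34.3 FPKM in Nfia libraries, against 20.8 to 23.7 FPKM in control libraries (log2 difference 0.53, adjusted p = 0.00265 in limma). Hes5, a second such repressor, was at 15.4 to 21.9 FPKM in Nfia libraries, against 24.5 to 29.6 FPKM in control libraries (log2 difference -0.57, adjusted p = 0.0163). Nrarp, a target that feeds back to limit the signal, had a log2 difference of -0.58 (adjusted p = 0.000541), and Hey1 one of -0.25 (adjusted p = 0.0201). Without Nfia 2 or control 1 the count of lower targets was 1, Nrarp.

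Of 6 genes for Notch-related ligands outside the canonical family 4 were lower and 0 higher, with a median log2 difference of -0.45; Egfl7 was called higher without Nfia 3. The lower ones were Cntn6 (-1.01), Dlk1 (-0.61), Cntn1 (-0.49) and Dner (-0.40); Dner, Cntn1 and Cntn6 are known as genes of neurons. Neuron markers were lower in the same libraries, as given above, and their part was not tested. Of 9 neurogenic factors, several of which switch on Delta-like genes, 5 were tested, 1 was higher and 1 lower, with a median log2 difference of -0.11. Neurog2 was lower at 2.96 to 3.90 FPKM in Nfia libraries, against 6.09 to 6.85 FPKM in control libraries (log2 difference -0.73, adjusted p = 0.00234). Neurod1, Insm1 and Hes6 were not called.

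**Figure D5:**
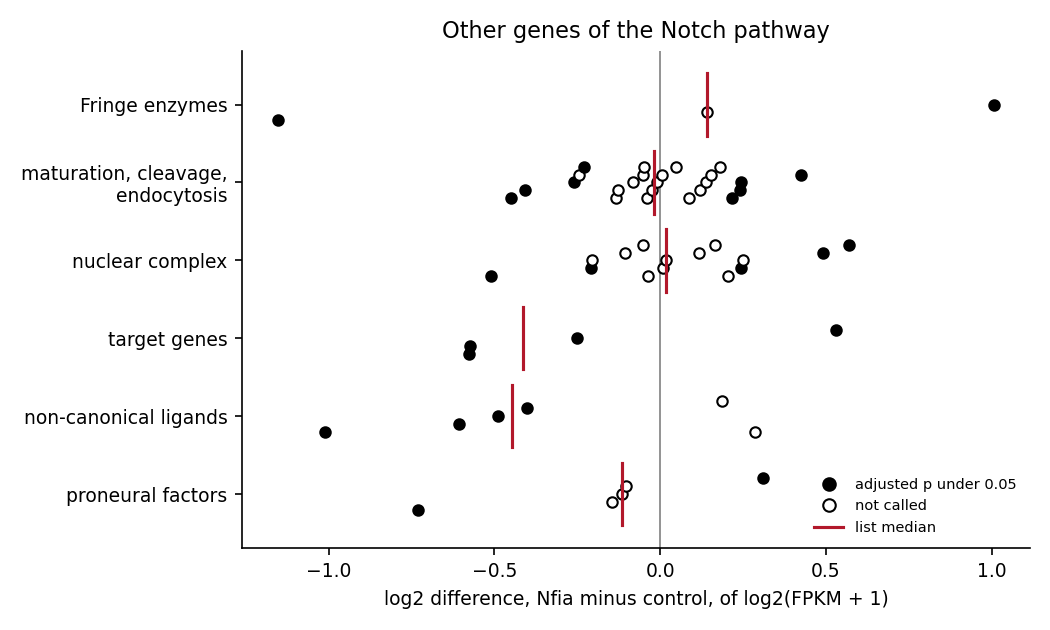
Log2 difference (Nfia minus control, on log2(FPKM + 1)) of each tested gene in 6 groups of other Notch pathway genes, with 1 point per gene, filled where the adjusted p was under 0.05, and a red line at the group's median. Lfng and Mfng lie at opposite ends (1.01 and -1.15), 3 of the 4 target genes lie below 0, and the called non-canonical ligands all lie below 0.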

How the data were processed

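Poly(A) RNA of 3 Nfia and 3 control libraries was made into directional libraries, per the labels' protocols. The authors deposited 1 FPKM value per gene symbol and library; the unit was inferred from the range of the values and the tools named. Per the submitters' processing notes, without roles, tools were Cufflinks, Cuffdiff, TopHat, Bowtie version 1, SAMtools and MACS version 1.4, with build mm10. The sources used here do not give the annotation, the filters or whether strand was used. FPKM is a share of a library, so abundant transcripts that rise lower the others, and whole reads were not recovered because gene lengths are not given.

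Values were kept as deposited, filtered at a mean of 1 FPKM, transformed to log2(FPKM + 1) and tested in R version 4.3.3 by limma, version 3.58.1 (variance trend, two-sided, Benjamini-Hochberg over 12537 genes). The fit was tested on simulated data. Ratios were compared by exact permutation with scipy version 1.17.1. Members and lists were chosen with earlier results of these data known. Named are Nfia, all members, the called genes of each pathway list, the 3 nearest profiles of each called member and defining cell markers, except some genes that are not reported here. Positions and promoters are RefSeq's on GRCm38.p6, matched by symbol. The labels do not say what the replicate numbers mark, and the main fit did not use them as pairs.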

Additional observations from a re-analysis of the deposited data

How the results depend on the processing

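Alternatives were a pseudocount of 0.1, no filter on low values, a filter at 5 FPKM, scaling by quantiles, by the upper quartile or by median ratios, limma without a trend or with a robust one, a replicate block, and leaving out each library in turn. Notch1, Dll4 and Jag1 stayed higher in every fit that tested them; at a mean of at least 5 FPKM Dll4, Jag2 and Notch4 were not tested, leaving 2 members higher. Without single libraries 3 members stayed higher and 0 to 1 lower, because of Dll3, and the log2 difference of Notch3 ran from -0.13 to 0.023. Calls over all genes ran from 1290 to 1625 higher and 1251 to 1572 lower, the fewest without Nfia 2, and pathway genes called higher from 5 to 8; the cause was not tested. With the replicate block 2130 genes were higher and 1916 lower, with 3 members higher and 1 lower as before. In limma with that block the adjusted p was 0.0792 for Notch2 and 0.0973 for Dll1, and neither was called. Correlations of deviations between same-numbered libraries were 0.026, -0.0058 and 0.046, beside -0.103 to 0.080 between libraries of different number. They are taken over all genes tested and cannot tell whether the numbers mark pairs. Mesenchymal markers, as given above, were low in both libraries numbered 1. Of 503 recomputed gene values 446 kept direction and side of the threshold, 54 lost the call and 3, all of Notch3, changed sign. No ratio between members changed sign. Depth is unknown, so the precision of low members such as Notch4 cannot be stated.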
